A study of Mus musculus with 12 samples.

Results

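The genes of the myogenic regulatory factors, Myod1, Myf5, Myf6 and Myog, were examined for acetylated histone H4 (H4ac) in C2C12 cells, an established mouse myoblast line. Members are all peaks that overlap 1 of 3 fixed windows of the mm9 genome by at least 1 bp: chr7:53580000-53660000 (80 kb, Myod1 with upstream enhancers), chr10:106860000-107060000 (200 kb, Myf5 and Myf6 with upstream enhancers) and chr1:136160000-136210000 (50 kb, Myog). The windows were set by gene and not by any measured value, though earlier results of these data were known when they were chosen. They held 95 of the 85369 peaks in the 6 deposited lists, 61 in the Myod1 window, 30 in the Myog window and 4 in the Myf5-Myf6 window. The compared cells had received a lentiviral construct of MLX, the bHLH-zipper partner through which the glucose sensors MondoA and ChREBP bind DNA. One group received MLX-DN, which the labels do not spell out and which is read here as a dominant-negative form; a label field also calls it MLX down. The other group received MLX-WT. The labels mention no removal of the cells' own MLX, the names of all peaks are tagged as being with glucose, and each group had 3 H4ac libraries and 3 libraries of input chromatin. The empty vector and non-targeting shRNA controls of the protocol were not analysed here, so MLX-DN was compared with added MLX-WT and not with unmodified cells. The labels name no separate cultures, so spread and p-values refer to these libraries and may be technical.

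The myogenic regulatory factors are basic helix-loop-helix proteins that bind the E-box, CANNTG, together with E proteins, and commit cells to skeletal muscle. Myod1 and Myf5 act in determination and are the members known from proliferating myoblasts, Myog encodes myogenin and drives terminal differentiation, and Myf6 encodes MRF4, which acts in determination in the embryo and in mature fibres. Myod1 is controlled by a distal core enhancer and a nearer regulatory region upstream of the gene, Myf5 and Myf6 share a long array of enhancers, and Myog has a compact promoter read by MEF2 and E-box factors. H4 acetylation marks active promoters and enhancers. In the RefSeq gene table (GRCm38.p6) the nearest protein-coding neighbours are Otog and Kcnc1 for Myod1, Lin7a and Ptprq on either side of the Myf5 and Myf6 pair, and Adora1 and Ppfia4 for Myog.

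The RefSeq promoter table (GRCm38.p6) matched 2 of the 4 genes, Myog and Myf5. The 250 bases before each start are shown for these 2 because the table held neither of the others. Myog, like Myod1, lies in a window with peaks in every MLX-DN library, and Myf5 lies in the window with almost no peak. Capitals mark E-boxes of the form CANNTG on either strand. The Myog sequence is chr1:134289754-134290003 on the plus strand and the Myf5 sequence is chr10:107486135-107486384 on the minus strand, both in GRCm38.p6. The peaks are in mm9 and coordinates were not carried between builds, so no peak is assigned here to either sequence.
Myog: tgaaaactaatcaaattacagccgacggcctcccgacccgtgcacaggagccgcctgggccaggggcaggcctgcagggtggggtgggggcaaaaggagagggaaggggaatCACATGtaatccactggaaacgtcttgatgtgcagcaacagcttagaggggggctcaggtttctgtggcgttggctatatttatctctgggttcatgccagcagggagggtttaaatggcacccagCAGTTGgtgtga
Myf5: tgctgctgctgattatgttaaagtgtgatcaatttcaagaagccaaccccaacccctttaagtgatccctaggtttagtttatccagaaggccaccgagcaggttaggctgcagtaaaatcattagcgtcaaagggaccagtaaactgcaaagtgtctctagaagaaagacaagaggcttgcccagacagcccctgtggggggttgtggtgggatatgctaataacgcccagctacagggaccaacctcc
The Myog sequence held 2 E-boxes, one beginning 138 bases and one 12 bases before the start, and the Myf5 sequence held none. At least 1 CANNTG was found in 66.2% of all 32851 promoter sequences of this length. Neither sequence held CACGTG, the E-box form bound by MLX with its partners, which 6.02% of all promoter sequences held. The E-box form CAGCTG was absent from both and present in 13% of all. Both forms are special cases of the general E-box. The letters TATAAA, held by 12.4% of all, were in neither, nor was the box CCAAT, held by 33.8%. A strict match to the MEF2 site, searched as YTAWWWWTAR and held by 2.92%, was also in neither. In this pattern Y is C or T, W is A or T, and R is A or G. The Myog sequence does hold ctatatttat, which misses the pattern only at its last base, so a MEF2 site of looser form is not excluded there. All letters were searched on both strands.

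The lists differ in length, from 5385 peaks in MLX-WT replicate 1 to 24811 in MLX-DN replicate 2, and MLX-DN lists are about 2.00 times as long on average. Recovered ChIP depth was close, 3.30 to 3.90 reads per 250 bp window. This depth is not a read count of the library but the lowest background at any of its listed peaks, on the ChIP scale. A peak missing from a list means that no stretch passed the q threshold of 0.05 there; no listed peak rested on fewer than 13 ChIP reads. The fold over background and the q-value are the authors' own values for each peak. The folds and percentiles of different lists are given side by side as a description, and no difference between groups is read from them. A peak's percentile is its rank by −log10 q, counted from the weakest peak, as a percentage of the length of its own list. Tied peaks share their mean rank.

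Acetylation at Myod1 was listed in all 6 libraries and was more extensive in the cells carrying MLX-DN. The peaks of MLX-DN replicates 1, 2 and 3 covered 7824, 12279 and 9749 bp of the window, and those of MLX-WT replicates 1, 2 and 3 covered 2154, 4061 and 3682 bp. The lowest MLX-DN library was thus well above the highest MLX-WT library. The means were 9951 ± 2234 bp and 3299 ± 1010 bp (SD, n = 3), a ratio of 3.02 against 2.23 for the whole lists and 2.06 for chromosome 7. Peak numbers were 11, 18 and 15 in MLX-DN compared with 4, 7 and 6 in MLX-WT, again without overlap. For both measures the exact permutation test, two-sided, gave p = 0.10, the smallest value that 3 against 3 libraries allow, and 0.20 after Benjamini-Hochberg adjustment over 3 windows and 2 measures. Of the 80 kb tiles of the genome with a peak in any library, 25.2% had every MLX-DN library above every MLX-WT library in covered length and 15.2% in peak number. Most of these tiles were far sparser than this window, with a median covered length of 0 to 825 bp by library. The share among tiles as dense as this window was not computed, so how unusual the separation is cannot be read from these values.

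The difference at Myod1 was smaller, and the groups still did not overlap, in lists of equal length. When each list was cut to its 5385 strongest peaks, the window held 4716, 5891 and 5963 bp in MLX-DN replicates 1, 2 and 3 compared with 2154, 2598 and 2528 bp in MLX-WT replicates 1, 2 and 3. The difference of the means was then 3097 bp in place of 6652 bp (two-sided exact permutation test p = 0.10). Of the 80 kb tiles, 6342 still held a peak in these cut lists, compared with 9715 in the full lists. Such a separation was shown by 11.5% of the 6342. Per Mb of listed sequence, the window took 1061 ± 117 bp in MLX-DN compared with 824 ± 175 bp in MLX-WT with full lists, where the groups overlapped (two-sided exact permutation test p = 0.20). At equal list length these became 1456 ± 159 bp and 895 ± 90.8 bp, and the groups did not overlap (SD, n = 3; two-sided exact permutation test p = 0.10). This measure per Mb was added after the data were seen, and the share of tiles that it separates is not given here.

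Compared with the rest of the genome, the Myod1 window was densely acetylated in both groups. Only 19 to 29 of 9715 tiles of 80 kb, 0.196% to 0.299%, held as much listed sequence as this window in the 3 MLX-DN libraries, and 50 to 114, or 0.515% to 1.17%, did so in the 3 MLX-WT libraries. Peaks over 1 kb made up 10 of 44 MLX-DN peaks in the window, or 22.7%, and 2 of 17 MLX-WT peaks, or 11.8%. These counts pool the 3 libraries of a group, so the same site can enter more than once. The wide MLX-DN peaks lay in regions 6, 9, 11, 12 and 18 of those numbered below, and the wide MLX-WT peaks in region 11 only. In the full lists such peaks were 4.60% to 7.58% of the peaks of an MLX-DN library and at most 4.26% of those of an MLX-WT library.

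**Figure D1:**
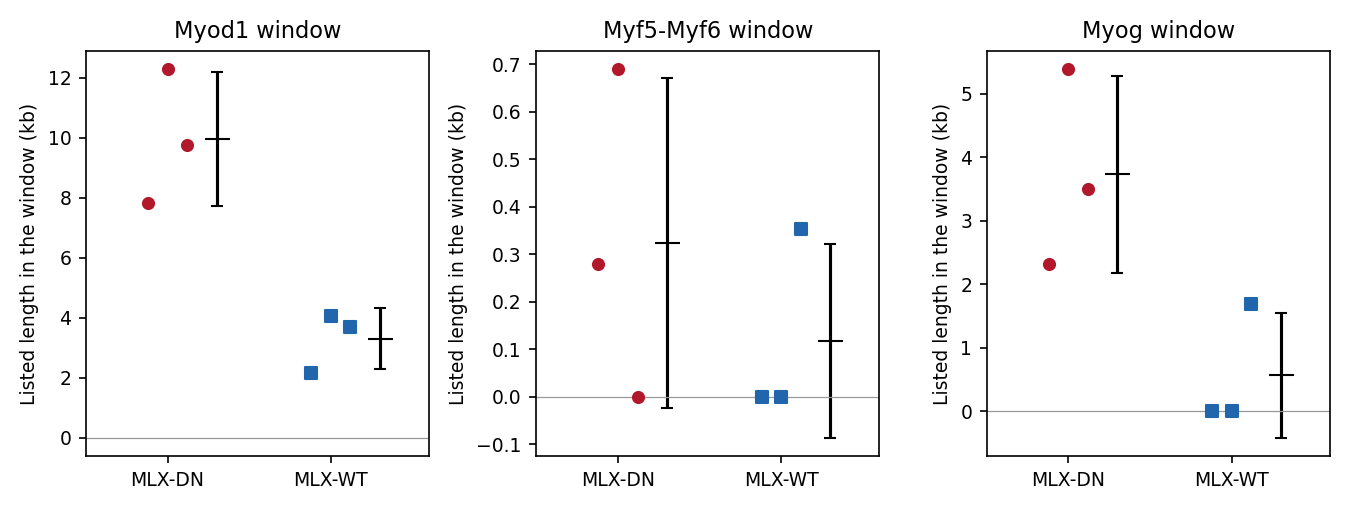
Length of the window covered by listed H4ac peaks (kb) in each of the 3 windows. Points are the 3 libraries of each group, and the bar beside them is their mean ± SD. Covered length in the Myod1 window is at least 7824 bp in MLX-DN and at most 4061 bp in MLX-WT, and in the Myog window 2 of 3 MLX-WT libraries lie at 0.

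The peaks at Myod1 merged into 18 regions, numbered here from the low to the high coordinate, which fell into 5 groups separated by gaps of over 3 kb. The main group, regions 8 to 13 at chr7:53603159-53610555, spanned 7.40 kb and was listed in every library. It held all of the listed sequence of the window in MLX-WT replicate 1, and 64.0% and 67.2% of it in MLX-WT replicates 2 and 3. In MLX-DN replicates 1, 2 and 3 it held 47.1%, 43.3% and 45.6%. The remaining MLX-DN sequence lay mostly in a second group to the left, regions 1 to 7 at chr7:53591348-53600155, which took 32.1% to 36.0% of the listed sequence in MLX-DN libraries compared with 0, 12.9% and 8.88% in MLX-WT replicates 1, 2 and 3. The other 3 groups lay to the right, and only the outermost was listed in MLX-WT. The last 25.8 kb of the window held no peak. The nearest peaks outside it lay 5.68 kb before its start, with a fold of 3.68, and 197 kb beyond its end, with a fold of 4.27, while the outermost peaks inside had folds of 3.41 and 4.80.

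**Figure D2:**
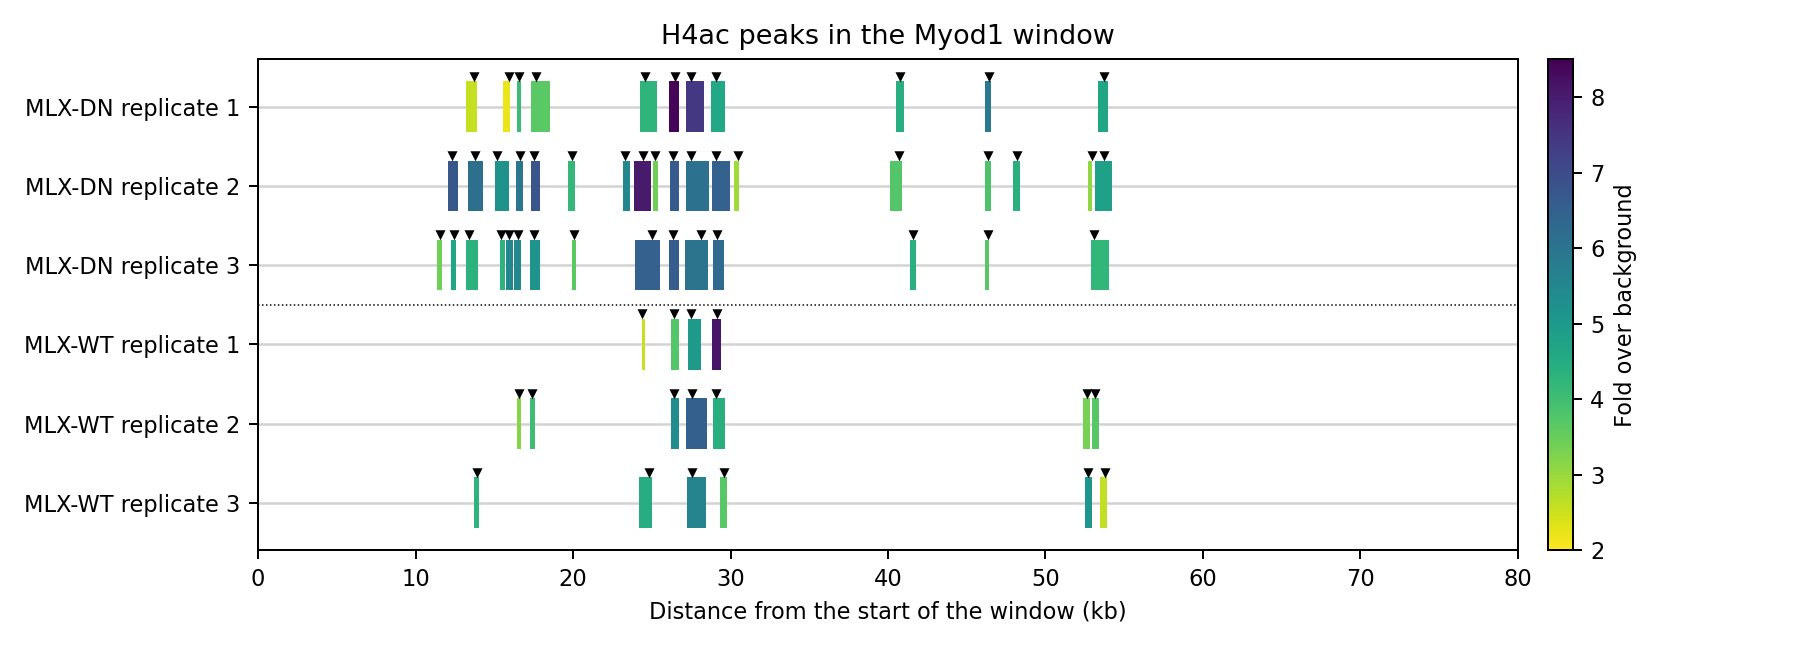
H4ac peaks of each library along the Myod1 window, with distance from the window's start in kb. Boxes are listed peaks coloured by the authors' fold over background, and black triangles above them are summits. All 6 libraries have peaks between 23 and 31 kb, while those near 12 to 20 kb are mostly in MLX-DN libraries and those at 40 to 49 kb in MLX-DN libraries only.

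Regions 11 and 12 of the main group were the only ones of the 3 windows listed by all 6 libraries. Region 11, chr7:53607119-53608611, had folds of 7.44, 6.08 and 6.02 in MLX-DN replicates 1, 2 and 3 alongside 4.97, 6.53 and 5.57 in MLX-WT replicates 1, 2 and 3. Its percentile was 92.6, 89.9 and 89.9 in the MLX-DN lists alongside 87.1, 85.7 and 86.1 in the MLX-WT lists. It stood in the upper part of every list. Its summit rested on 39, 49 and 43 ChIP reads in MLX-DN compared with 43, 35 and 32 in MLX-WT, over a background of 4.32 to 7.08 and 4.45 to 7.76 reads. The summits of 5 libraries lay between 53607476 and 53607574, and that of MLX-DN replicate 3 at 53608140.

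Region 12, chr7:53608792-53609949, held the strongest member of MLX-WT replicate 1. Its percentile was 96.7 in MLX-WT replicate 1, with a fold of 8.15 and rank 179 of 5385, and 61.5 and 25.3 in MLX-WT replicates 2 and 3, with folds of 4.41 and 3.70. In MLX-DN replicates 1, 2 and 3 it was 81.7, 88.6 and 94.1, with folds of 4.59, 6.51 and 6.28. It thus stood high in 4 lists and lower in those of MLX-WT replicates 2 and 3. The summits of 5 libraries lay between 53609095 and 53609125, whereas the MLX-WT replicate 3 peak, 408 bp wide, covered the right side of the region and had its summit at 53609612.

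Regions 9 and 10 were each listed by the 3 MLX-DN libraries and 2 MLX-WT libraries. At region 10, chr7:53606113-53606747, folds were 8.41, 6.65 and 6.60 in MLX-DN replicates 1, 2 and 3 alongside 3.73 and 5.34 in MLX-WT replicates 1 and 2, with no peak in MLX-WT replicate 3. The MLX-DN replicate 1 peak had the highest fold of that library's members, and the summits of the 5 libraries lay within 99 bp. At region 9, chr7:53603851-53605541, folds were 4.28, 8.06 and 6.51 in MLX-DN replicates 1, 2 and 3 alongside 2.56 and 4.46 in MLX-WT replicates 1 and 3. Listed width there was 1090, 1416 and 1597 bp in MLX-DN compared with 253 and 816 bp in MLX-WT. The MLX-WT replicate 1 peak, at a percentile of 4.79, had a background of 12.2 reads, the highest at any Myod1 peak. Regions 8 and 13 were listed by MLX-DN replicate 2 only, with folds of 5.46 and 2.94.

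In the left group every region listed by MLX-WT had a single MLX-WT library. Region 6, chr7:53597261-53598513, had folds of 3.65, 6.81 and 5.15 in MLX-DN replicates 1, 2 and 3 alongside 4.05 in MLX-WT replicate 2. Region 5, chr7:53596268-53596804, had folds of 4.06, 5.97 and 5.44 and, again in MLX-WT replicate 2, 3.19. At region 3, chr7:53593192-53594282, they were 2.56, 6.14 and 4.31, and 4.30 in MLX-WT replicate 3. The MLX-WT peaks there stood at percentiles of 40.9, 1.45 and 35.7 of their lists. Region 4, chr7:53595028-53596164, was listed by each MLX-DN library but never in MLX-WT, with folds of 2.19, 5.18 and 5.50 at its strongest peaks and an MLX-WT peak 0.254 kb away. Regions 3 and 4 in MLX-DN replicate 1 had backgrounds of 10.7 and 11.7 reads, against 3.90 to 7.05 in the other MLX-DN libraries. Their peaks in MLX-DN replicate 1 stood at percentiles of 7.45 and 0.480, the latter the lowest of any member. In MLX-DN replicates 2 and 3 the strongest peaks stood at 76.6 and 67.3 at region 3 and at 63.7 and 71.2 at region 4. Regions 1, 2 and 7 were listed by 1 or 2 MLX-DN libraries.

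To the right of the main group, region 16 was the other one found throughout MLX-DN but not in MLX-WT. It lay at chr7:53626136-53626552, 5.83 kb from the nearest MLX-WT peak, with folds of 5.85, 3.84 and 3.70 in MLX-DN replicates 1, 2 and 3. Its summits lay within 67 bp of each other, and its percentiles spread from 17.5 to 75.3. Regions 14, 15 and 17 were listed by 1 or 2 MLX-DN libraries each, with folds of 3.73 to 4.42. All 3 MLX-DN libraries had a peak in regions 14 and 15 together, whose nearest MLX-WT peaks were 10.4 kb and 10.6 kb away. These regions are separate, with a gap of 0.397 kb, and neither alone was listed by every MLX-DN library. How often neighbouring regions pool in this way across the genome was not counted.

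Region 18, chr7:53632381-53634247, was the rightmost and was listed by 5 libraries. Listed width was 667, 1372 and 1179 bp in MLX-DN replicates 1, 2 and 3 compared with 940 and 880 bp in MLX-WT replicates 2 and 3, with no peak in MLX-WT replicate 1. The peaks with the highest −log10 q had folds of 4.66, 4.80 and 4.22 in MLX-DN alongside 3.34 and 5.11 in MLX-WT, where a further peak of replicate 2 had 3.71. The summits of the peaks with the highest −log10 q lay at 53633697, 53633741 and 53633058 in MLX-DN and further left, at 53632644 and 53632689, in MLX-WT. MLX-DN replicate 2 had a second, weaker peak within the left part, and both MLX-WT libraries had one further right, so the region was covered from both sides in each group.

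**Figure D3:**
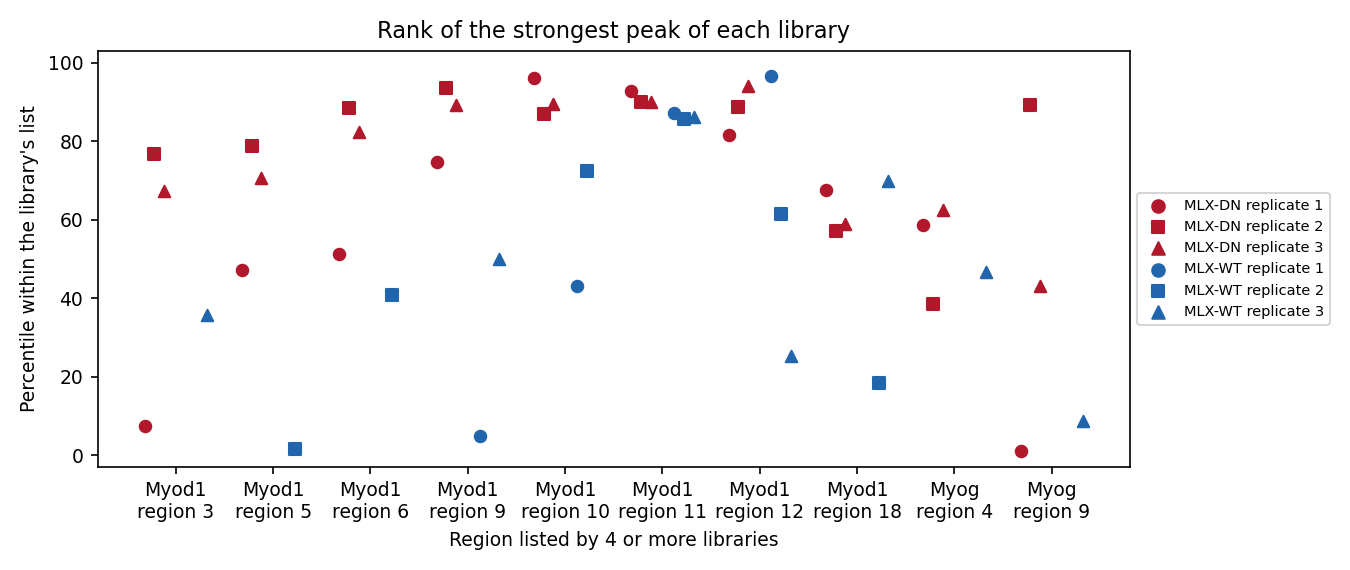
Percentile, within its own list, of the strongest peak of each library at the 10 regions listed by 4 or more libraries. Colours are the groups, symbols the replicates, and a missing symbol means no listed peak. Myod1 region 11 lies between 85.7 and 92.6 in all 6 libraries, and Myog region 9 spreads from 0.934 to 89.2.

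At Myog, acetylation was listed in every MLX-DN library and in a single MLX-WT library. Listed peaks covered 2321, 5390 and 3496 bp of the window in MLX-DN replicates 1, 2 and 3, against 0, 0 and 1698 bp in MLX-WT replicates 1, 2 and 3. The groups did not overlap in covered length, with means of 3736 ± 1548 bp and 566 ± 980 bp (SD, n = 3; two-sided exact permutation test p = 0.10, adjusted 0.20). Of the 50 kb tiles, 23.3% had every MLX-DN library above every MLX-WT library in this way. These tiles too were mostly sparser than the window was in MLX-DN, with a median covered length of 0 to 694 bp by library. Peak numbers were 5, 11 and 9 in MLX-DN compared with 0, 0 and 5 in MLX-WT, so MLX-DN replicate 1 and MLX-WT replicate 3 had the same number (two-sided exact permutation test p = 0.20, adjusted 0.30). The MLX-WT value rests on replicate 3 alone, and without it MLX-WT had 0 bp. MLX-WT replicate 2 listed no peak there. Its list held 13652 peaks, and its recovered depth was 3.84 reads per 250 bp window, the second highest of the 6. Of the 11996 tiles of 50 kb with a peak in any library, MLX-WT replicate 2 had a peak in 7626. MLX-WT replicate 1 had one in 3988, so tiles without a peak were common in both lists. Why MLX-WT replicate 2 listed none at Myog was not tested.

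The groups overlapped at Myog in lists of equal length. Percentiles of the Myog peaks ran from 0.934 to 89.2 in MLX-DN lists and from 4.54 to 46.6 in MLX-WT replicate 3. The 25 MLX-DN peaks had a median fold of 3.48 and percentile of 37.4, and medians of the 5 MLX-WT peaks were 3.41 and 8.63. The Myod1 peaks had medians of 4.64 and 67.4 in MLX-DN alongside 4.30 and 42.9 in MLX-WT. Among the 5385 strongest peaks, the Myog window held 393, 779 and 0 bp in MLX-DN replicates 1, 2 and 3 compared with 0, 0 and 270 bp in MLX-WT replicates 1, 2 and 3. The difference of 3170 bp became 301 bp (two-sided exact permutation test p = 0.40). Of the 7312 tiles of 50 kb that still held a peak at this length, 10.6% separated the groups. Per Mb of listed sequence in the full lists, the window took 384 ± 56.3 bp in MLX-DN compared with 137 ± 237 bp in MLX-WT (SD, n = 3; two-sided exact permutation test p = 0.20). MLX-WT replicates 1 and 2 were at 0 and replicate 3 at 411 bp, within the MLX-DN range of 319 to 420 bp. At equal list length the means were 97.7 ± 90.1 bp and 33.5 ± 57.9 bp (SD, n = 3; two-sided exact permutation test p = 0.40).

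Control background, the level under the peaks on the ChIP scale, separated the groups on chromosomes 1 and 10 but not on chromosome 7. Taken at regions shared by all 6 libraries and divided by each library's mean, this level averaged 0.973 ± 0.00389 in MLX-DN compared with 0.858 ± 0.0408 in MLX-WT on chromosome 1, which carries Myog (SD, n = 3; two-sided exact permutation test p = 0.10), with every MLX-DN library above every MLX-WT library. Peak numbers on chromosome 1 were 2.41 times as high in MLX-DN, against 1.84 times on chromosome 7, 1.75 times on chromosome 10 and 2.00 times for the whole lists. The background on chromosome 7, which carries Myod1, was 0.771 ± 0.0275 and 0.800 ± 0.0363, with overlapping groups (two-sided exact permutation test p = 0.20). On chromosome 10, which carries Myf5 and Myf6, it was 1.01 ± 0.00283 and 1.09 ± 0.0111, higher in every MLX-WT library (two-sided exact permutation test p = 0.10). The part of this background in the results at Myog and at Myf5 and Myf6 was not tested. Values for other chromosomes are not given here, so how common such separations are cannot be read.

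**Figure D4:**
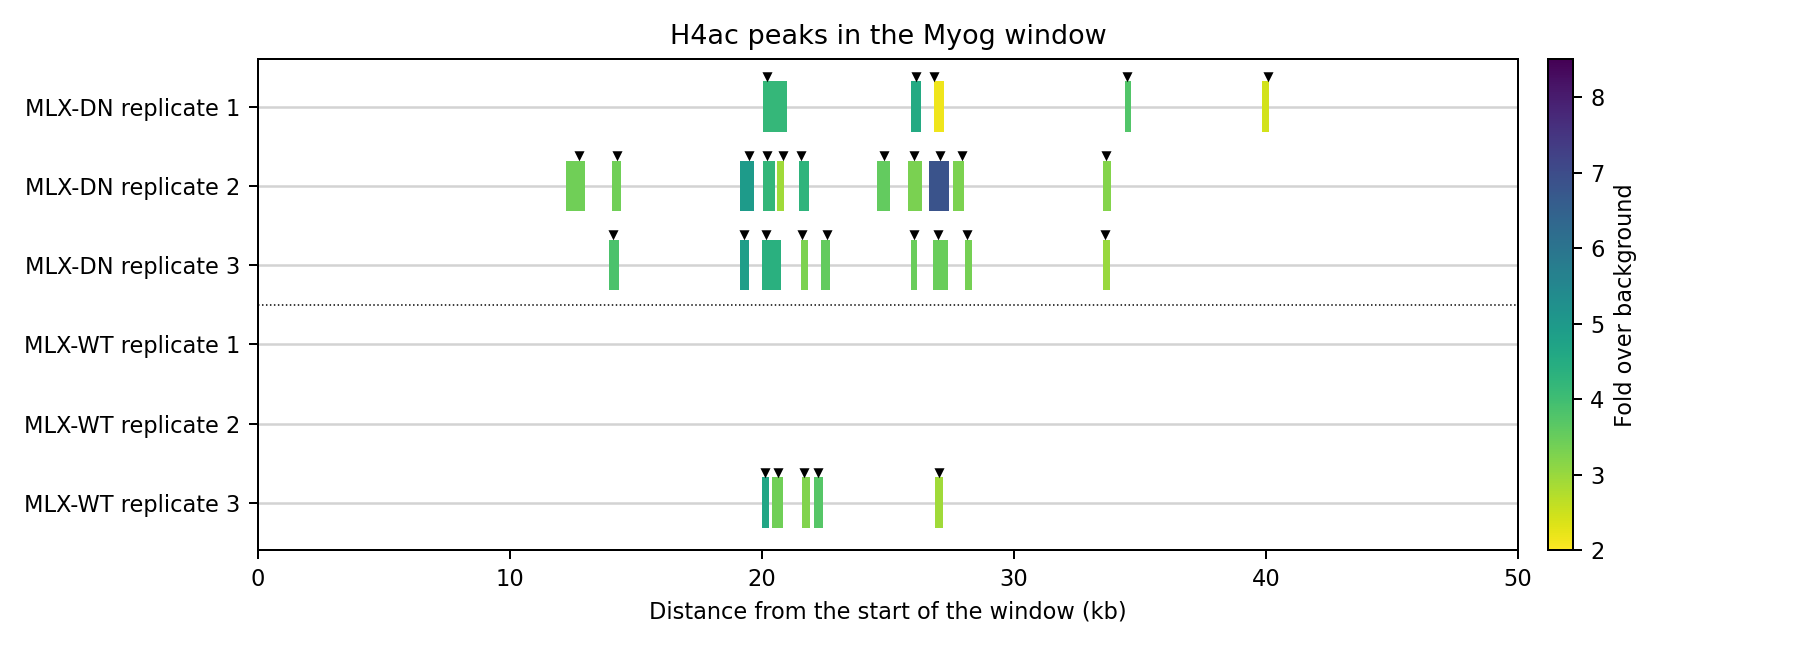
H4ac peaks of each library along the Myog window, with distance from the window's start in kb. Boxes are listed peaks coloured by the authors' fold over background, and black triangles are summits. MLX-WT replicates 1 and 2 have no peak, and the peaks of MLX-WT replicate 3 all lie between 20 and 28 kb.

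The Myog peaks merged into 14 regions, of which regions 3 to 11 formed a dense stretch of 9.20 kb at chr1:136179132-136188329. It held 73.0% to 81.9% of the listed sequence of the window in the MLX-DN libraries and all of it in MLX-WT replicate 3. Regions 4 and 9 were listed by all MLX-DN libraries and MLX-WT replicate 3. Region 4, chr1:136180003-136181011, had folds of 4.16, 4.18 and 4.38 in MLX-DN replicates 1, 2 and 3 alongside 4.65 in MLX-WT replicate 3, and summits within 92 bp. Its summits held 30, 23 and 31 ChIP reads in MLX-DN compared with 19 in MLX-WT replicate 3, over backgrounds of 6.40, 4.60, 6.24 and 3.30 reads. The MLX-WT peak had the fewest reads and the lowest background of the 4.

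Region 9 of the Myog window, chr1:136186637-136187415, held the strongest Myog peak of MLX-DN replicate 2 and the weakest of MLX-DN replicate 1. Its fold was 6.84 in MLX-DN replicate 2, at a percentile of 89.2, but 2.17 in MLX-DN replicate 1, at a percentile of 0.934. MLX-DN replicate 3 had a fold of 3.48 and MLX-WT replicate 3 one of 2.91. The background at the summits was 12.8, 5.13 and 8.41 reads in MLX-DN replicates 1, 2 and 3 compared with 6.89 in MLX-WT replicate 3, and the ChIP reads were 29, 42, 32 and 22. Region 8, chr1:136185812-136186344, was listed by each MLX-DN library but never in MLX-WT, with folds of 4.56, 3.31 and 3.47, summits within 60 bp and an MLX-WT peak 0.539 kb away.

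The remaining 11 Myog regions were listed by 1 to 3 libraries, with folds of 2.46 to 4.95. Region 3, chr1:136179132-136179688, had folds of 4.95 and 4.88 in MLX-DN replicates 2 and 3 and lay 0.319 kb from an MLX-WT peak. Regions 5 and 6 were shared by MLX-DN and MLX-WT replicate 3. Regions 12 and 13 together held a peak of each MLX-DN library, region 12 of replicates 2 and 3 and region 13 of replicate 1, and none of MLX-WT, at chr1:136193537-136194665, where folds were 3.01 to 3.76. They are separate regions, with a gap of 0.547 kb, and neither alone was listed by every MLX-DN library. How often neighbouring regions pool to this pattern across the genome was not counted. The nearest peaks outside the window lay 16.2 kb before it and 7.59 kb after it, both in MLX-DN replicate 2, with folds of 4.93 and 3.49. Region 14, listed by MLX-DN replicate 1 only, had 67 ChIP reads over a background of 26.7 reads, the highest background of any member, and a fold of 2.46.

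Myf5 and Myf6, with the widest of the 3 windows, had almost no listed acetylation. MLX-DN replicates 1, 2 and 3 covered 280, 690 and 0 bp of the window and MLX-WT replicates 1, 2 and 3 covered 0, 0 and 354 bp. The groups overlapped, with means of 323 ± 347 bp and 118 ± 204 bp (SD, n = 3; two-sided exact permutation test p = 0.70, adjusted 0.70). Of the 200 kb tiles, 30.2% separated the groups in covered length, and this window did not. No 2 libraries shared a peak, and the 4 peaks had folds of 3.78 to 4.36, 18 to 23 ChIP reads and percentiles of 17.1 to 45.7. They lay at chr10:106921031-106921384 (MLX-WT replicate 3), chr10:106928789-106929228 and chr10:106936703-106936952 (MLX-DN replicate 2) and chr10:106930243-106930522 (MLX-DN replicate 1). The nearest peaks outside lay 1581 kb before the window, with a fold of 5.53, and 4.57 kb after it, with a fold of 3.71. Of the 5816 tiles of 200 kb with a peak in any library, 74.2% in MLX-DN replicate 1, 68.8% in MLX-DN replicate 2 and 53.1% in MLX-WT replicate 3 had at least as much listed sequence as this window. The other 3 libraries had no peak there.

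Across the 3 windows the peaks formed 36 regions. A peak in each MLX-DN library but never in MLX-WT was found at 3 of them, or 8.33%, against 6.1% of the 31891 regions of the genome. None had the opposite pattern, which was found at 0.166% of all regions, and 2, or 5.56%, were listed by all 6 libraries, against 9.74%. With 36 regions these differences from the genome rest on 1 or 2 regions. In all, 23 regions, or 63.9%, were listed by MLX-DN libraries alone, against 51.5% of all regions. Both groups listed 12, or 33.3%, against 38.8%, and MLX-WT alone listed 1, or 2.78%, against 9.7%. Single libraries accounted for 15 of the 36, or 41.7%, against 42.9%. With MLX-DN replicate 1 left out, 8 of 33 regions, or 24.2%, were listed throughout MLX-DN and never in MLX-WT, against 12.5% of all regions. Without MLX-WT replicate 2 there were 5 of 36, or 13.9%, against 10.6%, and without MLX-WT replicate 3 there were 6 of 35, or 17.1%, against 7.57%. The other omissions gave shares closer to the genome. Without MLX-DN replicate 2 there were 3 of 28, or 10.7%, against 9.58%. Without MLX-DN replicate 3 there were 4 of 33, or 12.1%, against 10.7%. Without MLX-WT replicate 1 there were 3 of 36, or 8.33%, against 6.51%. At equal list length none of 15 regions had this pattern, against 1.96% of all.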

How the data were processed

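ChIP-seq of acetylated histone H4 was analysed in 6 libraries of C2C12 cells, 3 with MLX-DN and 3 with MLX-WT. Groups and replicate numbers come from the sample titles. The 6 input libraries entered only through the background in the lists. Per the submitters' processing notes the genome build was mm9, and MACS2 2.0.9, BWA 0.5.9-r26, R 2.14.0, Picard 1.65, CASAVA and SAMtools were used. Tool settings and the control library of each list are not stated in the sources used here. The authors deposited 1 peak list per library, so peaks were called per sample. The deposited columns are a ratio (fold of ChIP over background), the p-value and q-value as −log10, and a score, which equals 10 times the latter with decimals dropped.

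ChIP reads and background at each summit were recovered from the deposited fold and −log10 p. Whole reads were found for 100% of peaks in every library, within 0.001 of the −log10 p, and the step was checked on simulated data. Background was divided by the ChIP scale factor (0.848 to 1). Overlapping or touching peaks were merged into regions, and positions count from 1. Covered length and peak number per window were compared by an exact permutation test over 20 assignments, two-sided. Tiles of each window's width, counted from position 0 and kept if any library had a peak, gave the genome background. Regions listed by at least 4 libraries are given in full, the others by range, following the rule for named regions; those of the others whose values are given one by one were singled out after the values were seen. The groups of regions split at gaps of over 3 kb were drawn after the peaks were seen. Alternatives tried were equal list length, a −log10 q of 5 or more, equal depth (peaks keeping a −log10 p of at least 5), summits in the window, peaks covering 50% of a region, joining within 500 bp, each library left out and a replicate block; covered length per Mb of listed sequence was added after the data were seen. The windows and lists were chosen with earlier results of these data known. The list of other myogenesis genes was not used, because no mm9 annotation was used here. Python 3.11.15, NumPy 2.4.6 and SciPy 1.17.1 were used.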

Additional observations from a re-analysis of the deposited data

How the results depend on the processing

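Covered length and peak number in the Myod1 and Myog windows were higher in MLX-DN under all alternatives run, and no alternative could pass 0.05. For Myod1 the difference ranged from 3097 to 7715 bp and from 3.33 to 10.8 peaks, and with 1 library left out from 5488 to 7715 bp. For Myog it ranged from 301 to 3877 bp and from 0.333 to 8.33 peaks, both lowest at equal list length. In the Myf5-Myf6 window the difference of 205 bp reversed to -24.7 bp at a −log10 q of at least 5 and to -118 bp at equal list length. With 1 library left out it ranged from 22 bp (without MLX-DN replicate 2) to 367 bp (without MLX-DN replicate 3), and was 323 bp without MLX-WT replicate 3. The 0.667 peaks became 0 and -0.333. Per Mb of listed sequence it was -43.9 bp at equal list length and 1.83 bp with full lists. Regions listed throughout MLX-DN and never in MLX-WT, 3 in the full lists, numbered 0 at equal list length and 3 to 8 with 1 library left out. The cause of these moves was not tested; equal length and omitted libraries by construction change how many peaks enter.

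With a replicate block in the comparison, differences stayed 6652, 205 and 3170 bp (exact sign-flip test, p = 0.25, 0.75 and 0.25, where 0.25 is the smallest value 3 pairs allow). Same-numbered libraries deviated from their group means with correlations of -0.0593, -0.0596 and 0.000683 over all regions, so the numbers are not taken to pair the libraries. The fewest ChIP reads at a listed summit were 13 to 16 by library, and these windows held none under 15.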
